A study of Mus musculus with 5 samples.

Results

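Levels of 10 genes, grouped here as seizure-type genes of dentate granule cells, were followed in these cells: Penk, Npy, Bdnf, Sorcs3, Inhba, Nptx2, Pappa, Col27a1 and Acvr1c, picked as high, and Calb1, picked as low. They are 10 of the 32285 gene features counted, and each symbol belongs to 1 feature. They were chosen for their shift in the libraries labelled MAGL-KO, so their levels and folds between libraries are descriptions and support nothing by themselves. The hippocampus of 5 groups of mice was profiled by single-nucleus multiome sequencing, which reads RNA and open chromatin from the same nuclei, with 1 library per group. The groups are wild type, 5xFAD, and 5xFAD animals whose labels add an astrocyte-specific, a neuron-specific or a global MAGL-KO. 5xFAD mice are a transgenic model of Alzheimer's disease whose transgenes are driven by the Thy1 promoter, and all groups but wild type carry them. MAGL, encoded by Mgll, is the lipase that degrades the endocannabinoid 2-arachidonoylglycerol. The promoters behind the cell-specific deletions, the age and the number of animals per library are not given in the sources used here. All 5 libraries carry the same batch label. Values below follow the order wild type, 5xFAD, astrocyte, neuron and global MAGL-KO where 5 are given.

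Granule cells are the principal excitatory neurons of the dentate gyrus and pass entorhinal input to CA3 through the mossy fibres. After seizures or strong stimulation they are known to induce peptides and secreted factors, among them enkephalin, neuropeptide Y, BDNF and activin, and to lose the calcium buffer calbindin. A loss of calbindin from granule cells has also been described in mice that carry APP transgenes and in temporal lobe epilepsy.

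Granule nuclei were taken from clusters made without the 10 genes. They numbered 1629, 1365, 1705, 1150 and 2046, 7895 of 26778 nuclei in all, and their summed depth was 17628036 to 24317047 unique molecular identifiers (UMIs) per library. Their marker Prox1 stood at 229 to 270 counts per 1e+06 UMIs of the class (CPM), beside 35.2 to 46.8 in inhibitory neurons and 1.66 to 7.0 in CA1. Slc17a7, the vesicular glutamate transporter of excitatory neurons, stood at 163 to 228 CPM in them. Mgll in granule nuclei was not lost, at 86.3, 83.2, 115, 117 and 107 CPM. The counts do not show where in Mgll a UMI lies, so these values do not test the deletion, and each such library is called by its label. With 1 library per group there is no test between groups. Intervals in brackets are 95% intervals of counting error and do not cover differences between animals. Pairs of libraries shared 29 to 63 cell barcodes, at most 1.16% of the smaller library.

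The peptide genes Penk and Npy were both higher in granule nuclei of the 3 libraries labelled MAGL-KO than in 5xFAD. Penk, on chromosome 4 (GRCm38, 4133531 to 4138819), encodes the precursor of the enkephalins, opioid peptides that granule cells can release. Its level was 6.03, 6.34, 24.4, 42.7 and 34.9 CPM. The wild-type and 5xFAD values had overlapping intervals, [5.06, 7.12] and [5.28, 7.55], and the other 3 libraries lay above both. Against 5xFAD the Penk level was 3.85-fold [3.16, 4.73], 6.73-fold [5.57, 8.20] and 5.50-fold [4.56, 6.69] in the 3 libraries labelled MAGL-KO (astrocyte, neuron, global).

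Npy encodes neuropeptide Y, which many hippocampal interneurons make at rest and granule cells make after seizures. Its granule level was 5.20, 3.22, 11.4, 32.2 and 21.5 CPM, lowest in 5xFAD and highest in the library labelled neuron MAGL-KO. Against 5xFAD this was 3.54-fold [2.67, 4.74], 10.0-fold [7.71, 13.2] and 6.68-fold [5.14, 8.80]. Oligodendrocytes, which should lack Npy, held 10.7, 8.87, 11.9, 20.1 and 14.9 CPM. In CPM the granule level did not exceed this level in wild type, 5xFAD and the library labelled astrocyte MAGL-KO. Oligodendrocytes were shallower, with median depths of 2233 to 3305 UMIs beside 10937 to 14244.5 in granule nuclei. Their CPM may thus not be the background of granule nuclei, and the comparison does not settle whether Npy exceeded it. In the library labelled neuron MAGL-KO the granule interval [29.6, 35.0] and the oligodendrocyte interval [13.0, 29.7] overlapped at their ends, and in that labelled global MAGL-KO they overlapped as well, [19.7, 23.4] and [7.16, 27.4]. Inhibitory neurons held Npy at 62.6, 69.1, 123, 102 and 64.4 CPM. Their defining marker Gad2 stood at 0.906 to 2.00 CPM in granule nuclei and at 174 to 194 CPM in inhibitory nuclei. Gad1 stood at 38.4, 38.9, 39.3, 43.6 and 37.5 CPM in granule nuclei and at 149 to 168 in inhibitory nuclei, and granule cells are known to make some of it. Sst, also an interneuron peptide, stood at 22.2, 13.2, 21.8, 36.0 and 15.7 CPM in granule nuclei. The 10 genes of the inhibitory list summed to 1940 to 2599 CPM in granule nuclei, and its part in the Npy result was not tested.

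The start of Npy is on chromosome 6 and lay under an open-chromatin peak counted in these nuclei. The 250 bases before the start, from RefSeq on GRCm38.p6 (plus strand), are shown because that peak was followed as a readout besides RNA. They hold no cAMP response element (TGACGTCA), the motif of the activity-regulated factor CREB, on either strand. They also hold no AP-1 element, searched as TGANTCA, a loose form of the FOS-JUN motif that allows any middle base.
Npy, chr6:49822460-49822709: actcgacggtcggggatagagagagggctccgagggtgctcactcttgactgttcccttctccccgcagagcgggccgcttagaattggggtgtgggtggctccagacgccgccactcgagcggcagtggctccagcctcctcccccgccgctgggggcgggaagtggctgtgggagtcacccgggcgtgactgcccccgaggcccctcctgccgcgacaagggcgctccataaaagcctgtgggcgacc

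Bdnf and Sorcs3 belong to neurotrophin signalling. Bdnf, brain-derived neurotrophic factor, has several promoters, some of them driven by calcium entry. Its level in granule nuclei was 97.7, 77.3, 138, 133 and 122 CPM, lowest in 5xFAD. Against 5xFAD it was 1.78-fold [1.67, 1.90], 1.72-fold [1.61, 1.84] and 1.58-fold [1.48, 1.68], and against wild type 1.41-fold, 1.36-fold and 1.25-fold. So Bdnf was higher in all 3 libraries labelled MAGL-KO and reached 2-fold in none. Sorcs3 encodes a receptor of the sortilin family that sorts proteins at the synapse. Its granule level was 125, 84.4, 116, 482 and 194 CPM. Oligodendrocytes held Sorcs3 at 106, 110, 72.5, 78.1 and 76.1 CPM, so that the 5xFAD granule value lay below that level and the wild-type one within its interval [86.7, 127]. At their lower depth this does not settle whether granule Sorcs3 exceeded background. Only the libraries labelled neuron and global MAGL-KO lay above wild type, and that labelled astrocyte MAGL-KO lay below it, at 0.92-fold [0.87, 0.97] of wild type. Against 5xFAD, Sorcs3 was 1.37-fold [1.29, 1.46], 5.72-fold [5.42, 6.03] and 2.30-fold [2.18, 2.44].

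The windows before a Bdnf start that lay under a counted peak and before the Sorcs3 start are shown for the same reason as that of Npy (RefSeq, GRCm38.p6, plus strand). Of 4 Bdnf windows that overlap a counted peak, the one printed was picked because it holds a searched motif. In the Bdnf window the capitals mark the CGTCA of a short cAMP response element (TGACG on the minus strand), which begins 35 bases before the start. This short element occurs in 20.8% of 32851 RefSeq windows of 300 bases, from 250 before to 50 after a start. The full element occurs in 1.79% of them and the AP-1 element in 7.81%. Of 13 such windows at 6 of the 10 genes, 1 held the short element and 0 the full element. At another Bdnf start 1 held the loose AP-1 form, as TGAATCA.
Bdnf, chr2:109692186-109692435: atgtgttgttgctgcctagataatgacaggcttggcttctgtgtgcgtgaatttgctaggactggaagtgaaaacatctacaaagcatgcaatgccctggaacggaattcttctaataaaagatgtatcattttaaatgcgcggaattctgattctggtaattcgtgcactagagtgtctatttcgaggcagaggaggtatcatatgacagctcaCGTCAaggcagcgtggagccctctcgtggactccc
Sorcs3, chr19:48205775-48206024: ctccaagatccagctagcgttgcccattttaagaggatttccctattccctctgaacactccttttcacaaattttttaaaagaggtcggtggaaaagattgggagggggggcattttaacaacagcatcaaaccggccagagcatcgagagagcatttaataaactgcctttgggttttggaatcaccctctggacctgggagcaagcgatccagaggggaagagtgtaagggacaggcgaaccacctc

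Inhba and Acvr1c belong to the signalling of the TGF-beta superfamily. Inhba encodes the subunit of activin A, which is known to act through the type I receptor ALK4, and its granule level was 30.4, 26.3, 49.3, 58.2 and 36.2 CPM. Against 5xFAD it was 1.87-fold [1.68, 2.09], 2.21-fold [1.99, 2.46] and 1.37-fold [1.23, 1.53], so that only the library labelled neuron MAGL-KO passed 2-fold. Acvr1c encodes ALK7, a related type I receptor known for activin B and nodal, and stood at 53.6, 45.7, 106, 114 and 104 CPM. The 3 libraries labelled MAGL-KO lay close together, at 2.31-fold [2.14, 2.50], 2.50-fold [2.31, 2.71] and 2.28-fold [2.11, 2.46] of 5xFAD.

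Nptx2, Pappa and Col27a1 encode secreted or matrix proteins and were scarce in wild-type and 5xFAD granule nuclei. Nptx2, a neuronal pentraxin that gathers AMPA receptors at synapses, stood at 3.41, 2.62, 6.55, 20.3 and 9.21 CPM, or 2.50-fold [1.80, 3.52], 7.74-fold [5.77, 10.6] and 3.52-fold [2.59, 4.86] of 5xFAD. Pappa, a protease that frees insulin-like growth factors from their binding proteins, stood at 7.12, 6.80, 15.5, 58.7 and 26.7 CPM, or 2.28-fold [1.86, 2.81], 8.64-fold [7.22, 10.4] and 3.93-fold [3.26, 4.76]. The library labelled neuron MAGL-KO was the highest for both. Col27a1, a fibrillar collagen gene, had 4 and 3 UMIs in wild-type and 5xFAD granule nuclei (0.175 and 0.151 CPM) and 117, 256 and 677 in the other 3 libraries, 5.85, 14.5 and 27.8 CPM. The fold against 5xFAD was 38.7 [12.9, 191], 96.2 [32.5, 469] and 184 [62.8, 896], and its width comes from the 3 UMIs of 5xFAD. Microglia held Col27a1 at 97.5 to 186 CPM and oligodendrocytes at 11.9 to 21.3 CPM. The microglia list summed to 43.8, 41.6, 64.3, 57.1 and 45.6 CPM in granule nuclei, and its part in the Col27a1 levels was not tested.

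Calb1, the calcium buffer calbindin, was the only one of the 10 below 5xFAD in all 3 libraries labelled MAGL-KO. Its granule level was 154, 165, 131, 108 and 104 CPM. Against 5xFAD this was 0.80-fold [0.76, 0.84], 0.66-fold [0.62, 0.70] and 0.63-fold [0.60, 0.66], and 0.5-fold was reached in none, where 0.176%, 0.17% and 0.168% of all genes were that low. 5xFAD itself was 1.07-fold [1.02, 1.12] of wild type, where 0.17% of all genes were 2-fold lower.

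**Figure D1:**
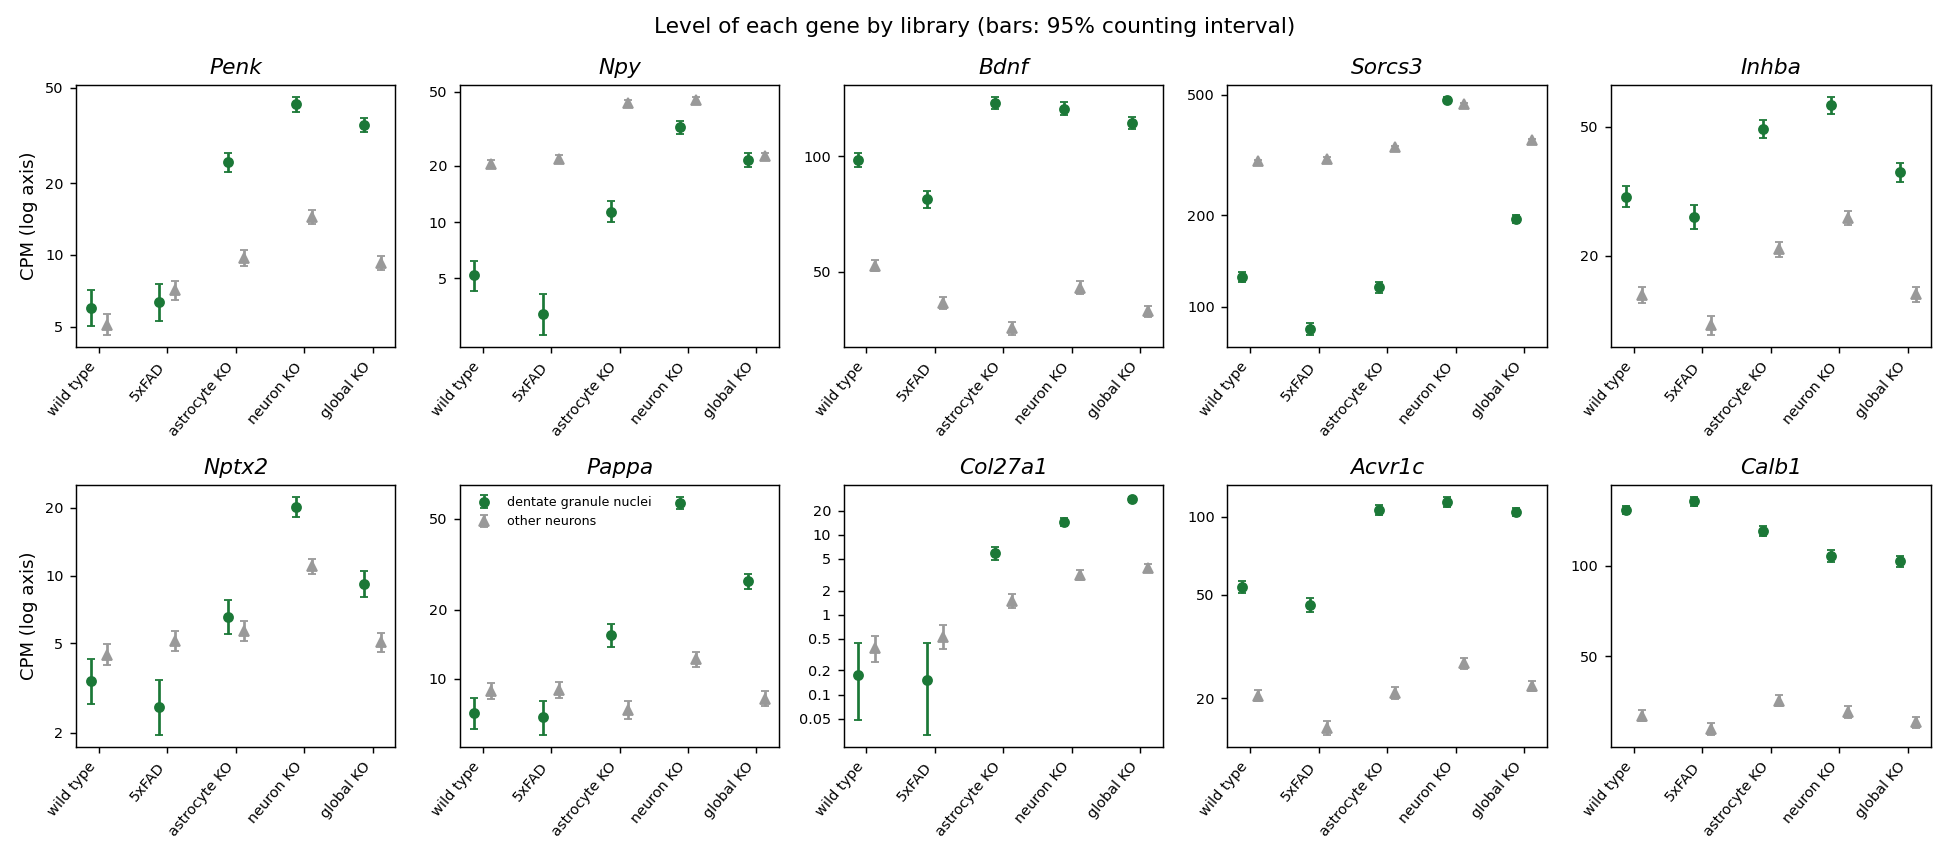
Level of each gene (CPM, log axis) in dentate granule nuclei (green circles) and in the other named neurons (grey triangles) of the 5 libraries, with 95% counting intervals. Penk in granule nuclei was 6.03 and 6.34 CPM in wild type and 5xFAD and 24.4 to 42.7 in the libraries labelled MAGL-KO, while Calb1 went from 165 in 5xFAD to 104 to 131.

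Counted over the 9 genes other than Calb1, 0 of the 8 with enough UMIs were at least 2-fold higher in 5xFAD than in wild type, and 6, 8 and 7 were at least 2-fold higher than in 5xFAD in granule nuclei of the 3 libraries labelled MAGL-KO (astrocyte, neuron, global). Over all genes with at least 100 UMIs in the libraries compared, 0.017%, 2.74%, 2.94% and 1.44% were that much higher. The genes were chosen on these contrasts, so nothing is read from the difference. The median fold of all those genes was 1.13, 1.10 and 1.03 in the 3 comparisons with 5xFAD, and of the 9 genes 2.31, 6.73 and 3.52. With size factors from the median of ratios, which remove that shift, 4, 7 and 7 reached 2-fold, beside 1.17%, 1.71% and 1.34% of all genes. With a pseudocount of 5 CPM the number for the library labelled astrocyte MAGL-KO was 3, beside 0.31% of all genes. Against wild type in place of 5xFAD the numbers were 4, 7 and 5, beside 1.88%, 2.02% and 1.17% of all genes, a choice made after seeing the data. The 3 comparisons share the 5xFAD library.

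In the other named neurons (CA1, CA3 and mossy, subicular and cortical-type, and inhibitory, 12084 nuclei) the same 9 genes had smaller folds. There 0 of the 8 with enough UMIs were 2-fold higher in 5xFAD than in wild type, and 2, 5 and 1 were 2-fold higher than in 5xFAD in the 3 libraries labelled MAGL-KO, where 0.112%, 3.84%, 3.94% and 0.736% of all genes were. The fold was larger in granule nuclei than in other neurons for 9 of 9 genes in each of the 3, beside 44.2%, 39.8% and 52.6% of all genes, and nothing is read from it since the genes were picked for that shift. Penk in other neurons stood at 5.12, 7.12, 9.71, 14.4 and 9.26 CPM. Acvr1c, Bdnf, Inhba and Calb1 were highest in granule nuclei among the 5 neuron classes of all 5 libraries. Penk in granule nuclei had rank 3 of those 5 classes in wild type and 5xFAD and rank 1 in the other 3 libraries. Col27a1 had rank 5 in wild type and 5xFAD, on 4 and 3 UMIs and with intervals that overlapped those of other classes. In the other 3 libraries it had rank 1. Sorcs3 was highest in CA1 in every library, at 580 to 955 CPM, and granule nuclei ranked last except in the library labelled neuron MAGL-KO, where they had rank 2. Npy was highest in inhibitory neurons throughout.

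Every library held nuclei with Xist UMIs and nuclei with UMIs of 4 Y-linked genes, so each pools animals of both sexes. This split was examined further because the high levels fell on one side of it. Granule nuclei with Xist and no Y-linked UMIs numbered 867, 518, 1021, 889 and 1069, and those with Y-linked and no Xist UMIs 646, 784, 592, 212 and 798. Of the nuclei so assigned, 57.3%, 39.8%, 63.3%, 80.7% and 57.3% were Xist nuclei. The levels, folds and order of whole libraries given above depend on this mix. Sex and animal cannot be told apart here, since the sources used here do not give how many animals of each sex a library holds. The median depth of the Xist and Y-linked sets was close within each library, 10770 and 11048.5 UMIs in that labelled astrocyte MAGL-KO and 10870 and 11573 in that labelled global MAGL-KO.

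Within the libraries labelled MAGL-KO the high levels lay in the Xist nuclei. Penk stood at 35.8, 52.0 and 60.3 CPM in Xist nuclei of the 3 libraries labelled MAGL-KO (astrocyte, neuron, global) and at 5.83, 10.6 and 6.02 in their Y-linked nuclei. In wild type it stood at 5.91 and 4.87 CPM and in 5xFAD at 7.57 and 5.35, Xist nuclei first. So the Y-linked nuclei of the libraries labelled astrocyte and global MAGL-KO lay within the range of wild type and 5xFAD, and only Xist nuclei of the 3 libraries stood far above it. The ratio of Xist to Y-linked nuclei for Penk was 6.14 [4.42, 8.76], 4.92 [3.47, 7.20] and 10.0 [7.66, 13.3] in the 3 libraries, beside 1.21 [0.82, 1.81] in wild type and 1.42 [0.97, 2.07] in 5xFAD.

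Npy stood at 15.4, 37.1 and 36.4 CPM in Xist nuclei and at 5.53, 11.5 and 5.71 in Y-linked nuclei of the 3 libraries, and at 3.07 to 5.87 in wild type and 5xFAD. The oligodendrocyte level of each of the 3 libraries, 11.9, 20.1 and 14.9 CPM, lay between its Xist and its Y-linked granule value. Sst, the other interneuron peptide, did not follow the split, at 21.7, 34.4 and 16.4 CPM in Xist nuclei and 21.2, 41.6 and 15.4 in Y-linked nuclei.

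Bdnf stood at 181, 152 and 177 CPM in Xist nuclei and at 67.9, 67.8 and 58.7 in Y-linked nuclei. The Y-linked values lay below the 81.7 CPM of Y-linked 5xFAD nuclei, so the library means hid opposite differences. Sorcs3 stood at 148, 586 and 300 CPM in Xist nuclei and at 63.1, 101 and 69.4 in Y-linked nuclei. For Sorcs3, 5xFAD went the other way, with 61.7 CPM in Xist and 98.6 in Y-linked nuclei, a ratio of 0.63 [0.56, 0.70].

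Acvr1c stood at 148, 131 and 159 CPM in Xist nuclei and at 37.1, 53.1 and 39.8 in Y-linked nuclei, beside 44.2 to 54.9 in wild type and 5xFAD. Inhba split least. It stood at 53.6, 60.6 and 47.4 CPM in Xist nuclei and at 42.0, 52.8 and 24.5 in Y-linked nuclei, ratios of 1.28 [1.11, 1.47], 1.15 [0.97, 1.36] and 1.93 [1.66, 2.26].

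Nptx2 stood at 8.76, 23.5 and 15.5 CPM in Xist nuclei and at 1.79, 6.40 and 1.66 in Y-linked nuclei. Pappa stood at 21.7, 75.6 and 45.1 CPM in Xist nuclei and at 5.08, 3.20 and 6.02 in Y-linked nuclei, at or below the 5.76 to 7.73 of wild type and 5xFAD. Its widest split was in the library labelled neuron MAGL-KO, 23.6-fold [12.8, 49.4].

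Col27a1 stood at 9.26, 18.9 and 53.1 CPM in Xist nuclei. In Y-linked nuclei it had 1 UMI, 0 and 1 (0.150, 0 and 0.104 CPM). Against the floor of 3 counts, Xist nuclei of the library labelled neuron MAGL-KO were at least 19.7-fold higher, and the ratio to the single Y-linked UMI of the other 2 was 62.0 [10.9, 2470] and 512 [91.5, 20241]. Calb1 went the opposite way, with 103, 98.9 and 52.4 CPM in Xist nuclei and 177, 144 and 164 in Y-linked nuclei. Its lowest value of the 10 sets was the 52.4 CPM of Xist nuclei in that labelled global MAGL-KO, 0.32-fold [0.29, 0.35] of that library's Y-linked nuclei. There 2.14% of all genes were at least 2-fold lower in Xist nuclei, beside 0.53% and 0.0834% in those labelled astrocyte and neuron MAGL-KO and 0.0933% and 0.129% in wild type and 5xFAD, where Calb1 did not pass.

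**Figure D2:**
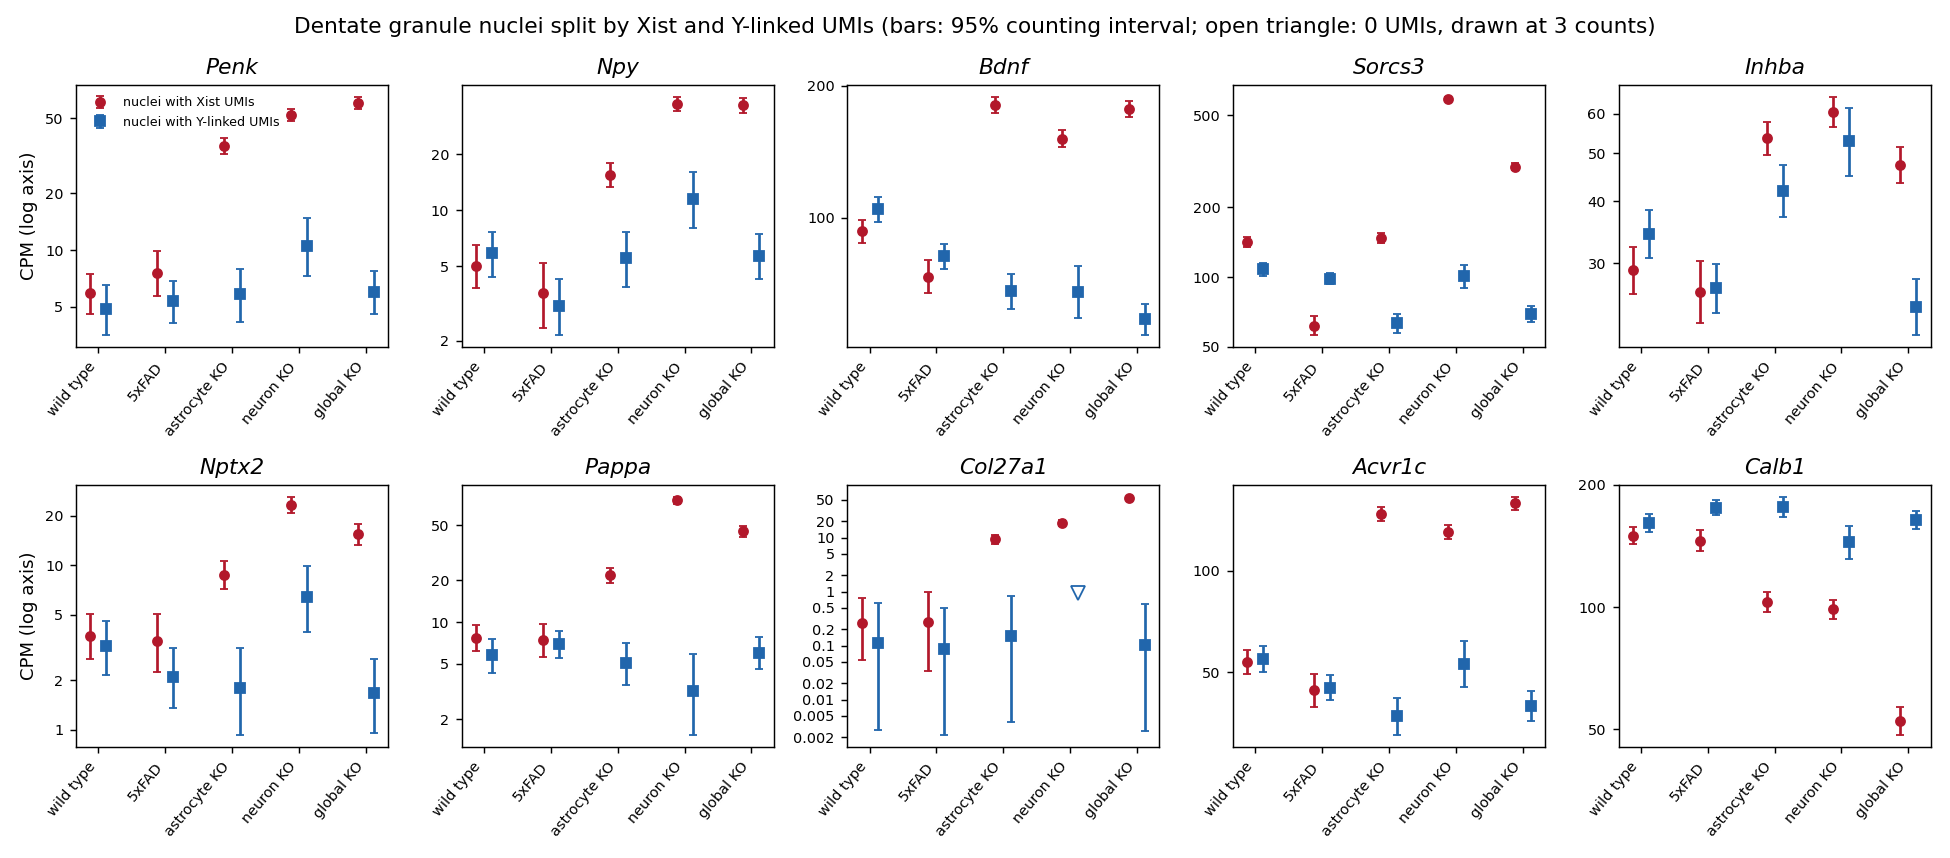
Level of each gene (CPM, log axis) in granule nuclei with Xist UMIs (red circles) and with Y-linked UMIs (blue squares) of the 5 libraries, with 95% counting intervals and an open triangle at 3 counts for 0 UMIs. Penk in Xist nuclei was 35.8 to 60.3 CPM in the libraries labelled MAGL-KO and 5.83 to 10.6 in their Y-linked nuclei, and Calb1 was lower in the Xist than in the Y-linked nuclei of those 3 libraries.

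Of the 9 genes other than Calb1, 8, 8 and 8 were at least 2-fold higher in Xist than in Y-linked granule nuclei of the 3 libraries labelled MAGL-KO (astrocyte, neuron, global), where 1.66%, 1.86% and 2.58% of all genes were. The exception in each was Inhba. In wild type and 5xFAD 0 of the genes with at least 100 UMIs were (7 and 6 of the 9), beside 0.0933% and 0.0645% of all genes. Within Xist nuclei, 9, 9 and 8 of the 9 were at least 2-fold above 5xFAD, beside 3.41%, 3.43% and 2.57% of all genes. Within Y-linked nuclei 0 of 6, 0 of 4 and 0 of 6 with enough UMIs were, beside 1.18%, 1.21% and 0.249%. The genes were picked for their shift in these libraries, and the split was taken up because their high levels fell on one side. Nothing is therefore read from these numbers. Of the members below that minimum, Npy stood at 3.75-fold and Nptx2 at 3.04-fold of 5xFAD in Y-linked nuclei of the library labelled neuron MAGL-KO. Thy1, whose promoter drives the 5xFAD transgenes, moved with the split, at 260, 274 and 262 CPM in Xist and 136, 152 and 114 in Y-linked nuclei of the 3 libraries and at 175 and 120 in 5xFAD, and its part in the result was not tested. Markers of mossy and CA3 cells moved with it too. Of 8 listed, 5 had enough UMIs, and 0, 3 and 3 of them were at least 2-fold higher in Xist nuclei of the 3 libraries (medians 1.43, 2.10 and 2.15), namely Spock1, Zfp804a and Elavl2. The list summed to 883, 874 and 1145 CPM in Xist and 670, 681 and 797 in Y-linked nuclei, with Calcr at 0 in all granule nuclei of 4 libraries, and its part in the result was not tested. Of 10 granule identity genes C1ql2 was 2-fold higher and Dsp and Tdo2 were 2-fold lower in Xist nuclei of the library labelled global MAGL-KO, with list medians of 0.86, 0.87 and 0.82 in the 3 libraries. Mgll did not move with the split, at 115, 119 and 106 CPM in Xist and 114, 118 and 104 in Y-linked nuclei.

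Penk did not split this way in other neurons. In CA1, Penk stood at 14.4, 17.6 and 10.3 CPM in Xist nuclei and 11.5, 28.7 and 15.2 in Y-linked nuclei of the 3 libraries labelled MAGL-KO (astrocyte, neuron, global). In inhibitory neurons it stood at 20.6, 24.3 and 14.6 in Xist and 24.9, 23.5 and 13.9 in Y-linked nuclei. Some other genes did. Col27a1 stood at 5.54, 7.12 and 15.3 CPM in Xist CA1 nuclei and 0.998, 0 and 0.183 in Y-linked ones. Over all other named neurons, Nptx2 and Pappa in the library labelled neuron MAGL-KO (2.47-fold and 2.39-fold) and Acvr1c in that labelled global MAGL-KO (2.01-fold) were also higher in Xist nuclei. In the same nuclei Sorcs3 stood at 348, 521 and 393 CPM in Xist and 379, 296 and 341 in Y-linked nuclei, so only the library labelled neuron MAGL-KO showed a wide gap. The other named neurons pool classes of unlike level. In that library Pappa stood at 22.6 CPM in inhibitory and 4.38 in CA1 nuclei. The part of the class mix in these gaps was not tested. The share of all genes past 2-fold was not counted for this split, so nothing is read from the genes that passed.

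Shares of granule nuclei with a UMI were counted as well. Penk UMIs were found in 5.71%, 6.30%, 16.0%, 24.2% and 20.9% of granule nuclei, at median depths of 10937 to 14244.5 UMIs. In oligodendrocytes, which served as background, the share was 1.52%, 0.306%, 0.298%, 3.39% and 0.877% at median depths of 2233 to 3305. After thinning each granule nucleus to 5000 UMIs, which left out 47 to 175 nuclei per library, Penk was found in 13.0%, 16.8% and 21.1% of Xist nuclei and 3.17%, 4.37% and 3.07% of Y-linked nuclei of the libraries labelled MAGL-KO. In wild type and 5xFAD it was found in 2.61% to 3.40% of either set. Calb1 UMIs were found in 29.5%, 31.0% and 18.9% of thinned Xist nuclei and 51.6%, 42.7% and 48.1% of Y-linked nuclei of the libraries labelled MAGL-KO. In wild type they were found in 44.4% and 44.0% and in 5xFAD in 42.2% and 51.8%, Xist nuclei first. Before thinning, at depths that differ between libraries, Bdnf UMIs were found in 55.0%, 48.3%, 58.7%, 58.4% and 55.6% of granule nuclei. Sorcs3 UMIs were found in 25.7%, 24.4%, 38.7%, 40.3% and 43.4%. After thinning the shares were 32.0%, 26.4%, 40.2%, 36.5% and 38.6% for Bdnf, lowest in 5xFAD like its level. For Sorcs3 they were 17.9%, 16.4%, 27.3%, 35.0% and 34.2%. The range of the Sorcs3 shares was narrower than that of its level, before and after thinning. Oligodendrocytes, at their lower depth, held a Sorcs3 UMI in 21.6%, 24.2%, 17.0%, 19.3% and 17.5% of nuclei. At the thinned depth a Calb1 UMI was missing from most Xist nuclei of the 3 libraries, and also from most wild-type nuclei of either set. A missing UMI does not show that the gene was silent in a nucleus.

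UMIs of several of the genes were found more often in nuclei with a Penk UMI. Xist and Y-linked nuclei were pooled for these shares. Penk was found far more often in Xist nuclei of the libraries labelled MAGL-KO, so pooling the sets can by itself give such differences. Its part was not tested, and genes outside the group were not counted this way. Thinned granule nuclei with a Penk UMI held a Sorcs3 UMI in 66.0%, 89.3% and 76.9% of cases in the 3 libraries labelled MAGL-KO (astrocyte, neuron, global), and nuclei without one in 23.4%, 25.8% and 27.9%. Oligodendrocytes, at lower depth and not thinned, held a Sorcs3 UMI in 17.0%, 19.3% and 17.5% of nuclei. Pappa was found in 22.0%, 50.9% and 22.3% of nuclei with Penk and 3.92%, 8.11% and 5.88% of those without. Calb1 was found less often beside Penk, in 15.3%, 10.7% and 14.3% of nuclei with it and 40.6%, 37.1% and 35.0% of those without. For Inhba the shares were 28.7%, 28.9% and 26.5% with Penk and 20.8%, 24.0% and 14.7% without, and in 5xFAD neither Inhba nor Npy was found in any of the 38 nuclei with Penk, beside 11.6% and 1.41% of those without. For Sorcs3 the same order was present in the few Penk nuclei of wild type, where 54.2% of 48 held Sorcs3, and of 5xFAD, where 60.5% of 38 did, beside 16.7% and 15.1% of nuclei without Penk.

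A granule cluster, made with the 10 genes kept out of the clustering, had Plpp4, Pappa, Col27a1, Penk, Acvr1c, Gsg1l, Fbln2, Plekha2 and the predicted genes Gm30551 and Gm6999 as its 10 leading genes and is called the Plpp4-Pappa cluster. It held 1323 nuclei, 2.76%, 2.27%, 20.5%, 24.7% and 30.0% of granule nuclei. Among Xist nuclei its share was 2.88%, 1.93%, 32.9%, 30.5% and 53.7%, and among Y-linked nuclei 2.79%, 2.55%, 1.18%, 2.36% and 1.38%. Inside it Penk stood at 23.2, 30.2, 92.6, 136 and 97.7 CPM and Calb1 at 75.8, 60.4, 45.8, 18.03 and 29.1 CPM. Other genes had another order inside the cluster. Sorcs3 stood there at 797, 744, 313, 1623 and 463 CPM, Inhba at 89.8, 92.7, 59.4, 99.2 and 54.6, and Bdnf at 260, 278, 316, 338 and 235, so that Sorcs3 and Inhba in the libraries labelled astrocyte and global MAGL-KO lay below the 45 wild-type and 31 5xFAD nuclei of the cluster. That order rests on few nuclei whose number depends on the clustering. The matching cluster, with Gm34567 in place of Gsg1l among its leading genes, held 18 wild-type and 14 5xFAD nuclei without doublet removal. It held 19 and 16 when the genes were let into the clustering, where a separate granule cluster with Bdnf among its leading genes held 51 and 25. The cluster was picked as the granule cluster with most of the 10 genes among its leading genes. Leaving it out, an alternative added after seeing the data, was thus largely bound to lower their folds, and nothing is read from the drop. Without the cluster, 1, 2 and 1 of the 9 genes were at least 2-fold above 5xFAD with no minimum of UMIs. Of all genes with at least 1 UMI, 13.7%, 15.5% and 10.1% passed, where a gene at 0 UMIs can pass through the floor of 3 counts alone. With the minimum of 100 UMIs the numbers of the 9 genes were 0, 1 and 0, beside 1.74%, 1.65% and 0.395% of all genes. The 1 was Npy, since Col27a1 outside the cluster rested on 2 UMIs in 5xFAD and 16, 5 and 19 in the 3 libraries labelled MAGL-KO. None of the granule markers was among the 10 leading genes of the Plpp4-Pappa cluster, while 9 of them were raised in it beside the other clusters.

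**Figure D3:**
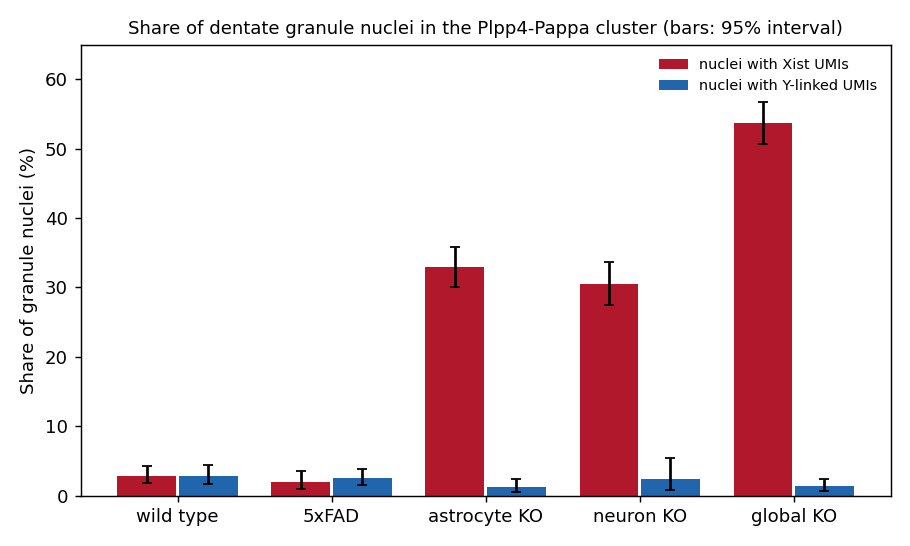
Share of granule nuclei (%) that fell in the Plpp4-Pappa cluster, for nuclei with Xist UMIs (red) and with Y-linked UMIs (blue) of the 5 libraries, with 95% binomial (Clopper-Pearson) intervals. Xist bars are 32.9%, 30.5% and 53.7% in the libraries labelled MAGL-KO, and every other bar is 1.18% to 2.88%.

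Open chromatin of the same granule nuclei was a readout that the choice of genes did not use. It is not independent of the RNA, since the nuclei and the split are the same and the genes were picked for their RNA. The shares are therefore descriptions. Over peaks within 10 kb of the 9 genes with at least 100 cut sites, 8 of 41, 7 of 40 and 10 of 42 were at least 2-fold more accessible in Xist than in Y-linked nuclei of the 3 libraries labelled MAGL-KO (astrocyte, neuron, global), that is 19.5%, 17.5% and 23.8%. Over all such peaks the share was 5.16%, 5.72% and 8.66%. In wild type and 5xFAD 0 of 38 and 0 of 30 were, beside 0.380% and 0.258% of all peaks. Peaks of 1 gene are not independent of each other. Only 3 peaks passed 2-fold in all 3 libraries, beside 1.5% of all peaks, and they lay at Penk, Sorcs3 and Acvr1c. They were 3 of 35 with at least 100 cut sites in each library, counted over all 10 genes, Calb1 included.

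The Penk peak covers the start of the gene (chr4:4138366-4139237). Its ratio of Xist to Y-linked nuclei was 1.41, 0.89, 2.81, 4.17 and 2.80, and the intervals of the libraries labelled MAGL-KO, [1.79, 4.56], [1.97, 10.6] and [1.87, 4.32], lay above 1. The Sorcs3 peak lay inside the gene, 53.3 kb from the start (chr19:48258867-48259732), with ratios of 1.09, 0.49, 3.51, 3.61 and 5.14. The Acvr1c peak lay inside the gene, 68.3 kb from the start (chr2:58289095-58290029), with ratios of 0.72, 0.64, 2.49, 2.92 and 2.58.

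None of the following peaks at or near starts passed 2-fold in all 3 of these libraries. The Npy start peak, which covers the sequence shown above, had ratios of 1.31, 0.82, 1.78, 1.22 and 3.02, and only the last passed 2-fold. The peak over the Bdnf window shown above had ratios of 1.07, 0.89, 1.16, 1.75 and 1.54. The peak that reaches into the Sorcs3 window had ratios of 1.12, 0.60, 2.49, 2.00 and 1.16, so it did not follow the RNA in that labelled global MAGL-KO. The Calb1 start peak, with ratios of 0.76, 0.83, 0.68, 0.88 and 1.03, did not fall where Calb1 RNA was lowest.

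Further peaks inside genes, chosen after their values were seen, had larger ratios or the opposite direction. At Col27a1 (chr4:63228714-63229619) the ratios were 1.00, 0.93, 2.79, 1.95 and 6.87. At Pappa one peak (chr4:65242231-65243170) had ratios of 1.18, 0.82, 5.26, 1.87 and 3.02, and another (chr4:65288959-65289873) went the opposite way, with 0.96, 0.52, 0.56, 0.45 and 0.14.

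**Figure D4:**
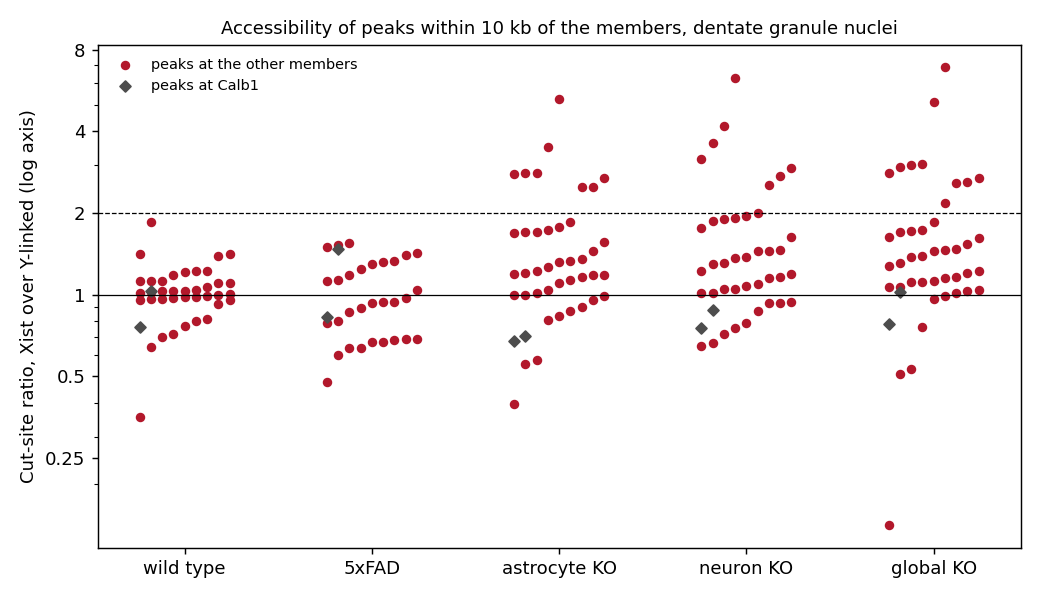
Ratio of cut sites in Xist over Y-linked granule nuclei (log axis) for each peak with at least 100 cut sites within 10 kb of the 9 genes (red circles) and of Calb1 (grey diamonds) in the 5 libraries. The dashed line is 2-fold: 8, 7 and 10 red points lie above it in the 3 libraries labelled MAGL-KO (astrocyte, neuron, global) and 0 in wild type and 5xFAD.

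Partner genes of the same pathways were counted against 5xFAD in granule nuclei, where 2.74%, 2.94% and 1.44% of all genes were at least 2-fold higher in the 3 libraries labelled MAGL-KO. Of the activin list 0 of 12 tested genes were 2-fold higher or lower than in 5xFAD in each library labelled MAGL-KO, with median folds of 0.96, 0.97 and 0.95. The type II activin receptor Acvr2a stood at 271, 293, 235, 231 and 230 CPM, and Fst, the activin antagonist follistatin, at 3.23, 3.07, 2.30, 2.44 and 1.77. Of the immediate early genes, which mark recent activity, 0 of 9, 3 of 10 and 0 of 9 were 2-fold higher, with medians of 1.24, 1.24 and 0.92. Arc, an immediate early gene of synapses, stood at 1.40, 0.805, 0.95, 7.71 and 1.48 CPM and was 9.58-fold of 5xFAD in the library labelled neuron MAGL-KO. The other 2 were Egr3 (2.32) and Fosl2 (2.27), named after their values were seen. Fos stood at 0.0822 to 0.611 CPM in granule nuclei of the 5 libraries.

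Of the neurotrophin and sortilin list, 1 of 7 genes was 2-fold higher in each of the 3, and it was Sorcs1, the relative of Sorcs3. Sorcs1 stood at 30.0, 16.9, 43.3, 114 and 88.7 CPM, and at 61.5, 142 and 152 CPM in Xist beside 10.2, 9.28 and 11.6 in Y-linked nuclei of the 3 libraries labelled MAGL-KO (astrocyte, neuron, global). Ntrk2, the BDNF receptor TrkB, stood at 336, 343, 261, 278 and 283 CPM. Of the opioid and neuropeptide Y list 1 of 7 was 2-fold higher in each, Oprd1, the delta receptor that binds enkephalin. Oprd1 stood at 7.16, 5.99, 19.3, 23.3 and 21.3 CPM, and at 27.3, 27.8 and 34.5 CPM in Xist beside 5.23, 8.32 and 5.40 in Y-linked nuclei. The mu receptor Oprm1 stood at 26.8, 20.8, 39.2, 37.8 and 21.8 CPM and the neuropeptide Y receptors Npy1r and Npy2r at 29.2 to 35.9 and 13.5 to 17.3 CPM.

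Of the pentraxin and secretory peptide list 0, 3 and 0 of 11 were 2-fold higher, with medians of 1.21, 1.56 and 1.13. The 3, named after their values were seen, were Vgf (3.06), Chga (2.29) and Pcsk1 (2.10), which encode secretory granule proteins. Nptx1 stood at 54.1 to 69.8 CPM and Nptxr, the pentraxin receptor, at 41.1, 42.0, 57.4, 70.6 and 56.5. Of the growth factor axis around Pappa 0 of 4, 0 of 4 and 0 of 5 were 2-fold higher. Igfbp4, the binding protein that Pappa cleaves, stood at 0.403 to 1.53 CPM and Igfbp5 at 32.4 to 51.5. Over the pathway and granule lists, without those of other cell types, the smallest folds against 5xFAD were those of Pcsk1 (0.58) and Homer1 (0.725) in the library labelled astrocyte MAGL-KO, Camk4 (0.65) and Nr4a3 (0.69) in that labelled neuron MAGL-KO, and Fst (0.58) and Nr4a3 (0.63) in that labelled global MAGL-KO. In 5xFAD against wild type the largest folds were those of Bambi (1.49) and Sox11 (1.23) and the smallest those of Nr4a3 (0.32) and Pcsk1 (0.48). Of the 10 granule identity genes 0 passed 2-fold in either direction, with medians of 0.99, 0.96 and 0.94. Of the immature granule list 0 of 6 passed in each, with medians of 1.46, 1.26 and 1.41. Between Xist and Y-linked nuclei 0, 0 and 1 of 4 passed, with medians of 0.98, 1.16 and 1.62, the 1 being Sox11 (2.15-fold, named after its values were seen) in the library labelled global MAGL-KO. What part these genes have in the Calb1 values was not tested. Some markers of other cell types passed, named after their values were seen, and their part in the results was not tested. In the library labelled neuron MAGL-KO they were Sst (2.73) and Wfs1 (2.05), with Erbb4 (0.48) lower. In that labelled global MAGL-KO they included Spock1 (2.54) and Elavl2 (2.60) of the mossy and CA3 list, Wfs1 (2.07) of the CA1 list and Dcn (2.27). Dcn is on the vascular list, but it was also among the leading genes of a cluster named CA1.

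Genes whose pattern was most like the mean of the 9 over the 10 sets of granule nuclei (5 libraries, Xist or Y-linked) were Fam129b (Pearson r = 0.985), Panx1 (0.985), Rgs6 (0.984), Oprd1 (0.979) and Acvr1 (0.974), of 9217 genes. The sets share libraries, so these values are descriptions. Acvr1, an activin-family type I receptor, stood at 308, 342 and 401 CPM in Xist and 159, 191 and 174 in Y-linked nuclei of the 3 libraries labelled MAGL-KO (astrocyte, neuron, global). Panx1, a pannexin channel gene, stood at 15.2, 20.0 and 23.8 CPM in Xist and 7.18, 7.36 and 5.61 in Y-linked nuclei. The most opposite were Prickle2 (r = -0.977), Ank (-0.975), Pde7b (-0.962), Zbtb20 (-0.961) and Cdk14 (-0.958). Each of the 9 genes correlated with the mean of the other 8 at 0.728 (Inhba) to 0.972 (Penk), and Calb1 at -0.890 with the mean of the 9.

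Pappa and Col27a1 lie on chromosome 4 (63214004 to 63334991 for Col27a1 and 65124174 to 65357509 for Pappa). Of the 18 genes between them 1 had at least 100 UMIs in granule nuclei, Atp6v1g1, a subunit of the vacuolar proton pump.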

How the data were processed

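Gene values are deposited counts of UMIs and peak values are deposited counts of transposase cut sites, made with Cell Ranger ARC 2.0.0 on mm10 per the submitters' processing notes, which also name Seurat. Nuclei had to hold 500 genes or more and no more than 5% mitochondrial UMIs, and the top 0.8% per 1000 nuclei by Scrublet score were removed as doublets. Nuclei were clustered with scanpy 1.11.5 (2000 variable genes, 40 components, 15 neighbours, resolution 1) without the 10 genes and without the activity, peptide, neurotrophin, opioid, activin, pappalysin and calcium-binding lists. Clusters were named from marker genes, and names stand for nuclei like that type. UMIs were summed per class and library and divided by the class total (CPM). Folds are ratios of CPM with exact conditional binomial intervals, levels have exact Poisson intervals and shares have Clopper-Pearson intervals, all at 95%. A count of 0 was set to a floor of 3 for folds. A gene or peak counted as higher at 2-fold with at least 100 counts over the sets compared. The ratio calculation was tested on simulated data. Peaks of the 5 libraries were merged where they overlapped by 1 base or more.

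The genes and lists were chosen with earlier results of these data known. All 10 genes are named. Beyond them the text names, of the pathway and granule lists, the 2 largest and 2 smallest folds per comparison and genes that pair with one of the 10. It also names the 5 genes most and least like the mean of the 9 by Pearson correlation of log2(CPM + 5). Predicted genes with Gm or Rik names were left out there. Other genes are named outside this rule, among them genes that passed 2-fold, named after their values were seen, and markers of cell types. The split into Xist and Y-linked nuclei was planned as an alternative, and comparing the sets within a library was added after seeing the data. Alternatives were other nucleus filters and class rules, size factors, a mean over nuclei, thinning and a pseudocount.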

Additional observations from a re-analysis of the deposited data

Results flagged for a closer look

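In 7 cases the granule nuclei with Xist UMIs and those with Y-linked UMIs lay on opposite sides of the 5xFAD nuclei of the same kind, each with a counting interval that left out 1. Of all genes with at least 100 UMIs in both comparisons, 4.08%, 2.42% and 7.29% did so in the libraries labelled MAGL-KO, astrocyte first, then neuron and global. The 5xFAD library itself differed for Sorcs3, at 61.7 CPM in Xist and 98.6 in Y-linked nuclei. The difference was not tested, since each group is 1 library. Bdnf did so in the libraries labelled astrocyte MAGL-KO (2.47-fold [2.24, 2.72] in Xist and 0.83-fold [0.74, 0.93] in Y-linked nuclei), neuron MAGL-KO (2.07-fold [1.88, 2.28] and 0.83-fold [0.71, 0.97]) and global MAGL-KO (2.41-fold [2.19, 2.66] and 0.72-fold [0.65, 0.80]). Sorcs3 did so in that labelled astrocyte MAGL-KO (2.39-fold [2.15, 2.66] and 0.64-fold [0.57, 0.72]) and in that labelled global MAGL-KO (4.86-fold [4.40, 5.37] and 0.70-fold [0.64, 0.77]). Acvr1c did so in that labelled astrocyte MAGL-KO (3.34-fold [2.97, 3.78] and 0.82-fold [0.70, 0.96]) and Pappa in that labelled neuron MAGL-KO (10.2-fold [7.73, 13.6] and 0.46-fold [0.21, 0.89], from 10 and 79 Y-linked UMIs, under the minimum of 100). All comparisons share the 5xFAD library.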

How the results depend on the processing

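No paired analysis was possible because there is only 1 library for every group. The numbers of the 9 genes at least 2-fold above 5xFAD (6, 8 and 7 in the 3 libraries labelled MAGL-KO, astrocyte first, then neuron and global) moved by over 1.5 times in Y-linked nuclei alone (0, 3 and 0), without the Plpp4-Pappa cluster (1, 2 and 1) and, for the first, with a pseudocount of 5 CPM (3). The cluster was picked for the genes among its leading genes, so a drop without it was largely fixed in advance. These numbers were taken with no minimum of UMIs. With at least 100 UMIs they were 0, 0 and 0 in Y-linked nuclei and 0, 1 and 0 without the cluster, and the 3 included Col27a1 with 0 UMIs in the library and 1 in 5xFAD, which passes only through the floor of 3 counts and is no fold. The 0 of 5xFAD against wild type stayed 0 under every alternative run. In Y-linked nuclei alone, folds that had passed 2 fell below 1 for Nptx2 (0.85), Pappa (0.73) and Acvr1c (0.82) in the library labelled astrocyte MAGL-KO, for Pappa (0.46) in that labelled neuron MAGL-KO, and for Sorcs3 (0.70), Nptx2 (0.79), Pappa (0.87) and Acvr1c (0.88) in that labelled global MAGL-KO. Without the cluster, Pappa fell to 0.79 in the library labelled astrocyte MAGL-KO. Of 550 folds of single genes under the alternatives, 396 stayed within the counting interval of the reported value, 145 left it, and 9 that had passed 2-fold crossed 1. In all, 29 of the 550 lay on the other side of 1 than the reported fold. The share of all genes 2-fold higher depends on the minimum count: with at least 30 UMIs it was 0.235%, 5.45%, 5.48% and 2.57% in the 4 comparisons, and with at least 1 UMI 8.39%, 12.4%, 14.5% and 9.92%. With at least 1 UMI a gene at 0 UMIs can pass through the floor of 3 counts alone. Those shares are therefore not counts of genes that were higher. Depth limits Col27a1 in wild-type and 5xFAD granule nuclei (4 and 3 UMIs) and the Y-linked set of the library labelled neuron MAGL-KO (212 nuclei). Differences between animals cannot be told apart from differences between groups.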
